A study of Homo sapiens with 10 samples.

Results

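Kuramochi cells adapted to 320 µM olaparib were split by whether each cell stands on the deposited table of G1 cells, and the cells absent from it, here called cycling, were compared with those on it, here called G1-listed. Of 13800 cells in the series, 3884 carried the names of the 320 µM adapted condition, 2038 in pool 1 and 1846 in pool 2. The table lists 1098 and 1017 of them (2115 in all), which leaves 940 and 829 cycling cells (1769 in all). What the authors based the table on is not given in the sources used here.

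Kuramochi is an established human line of high-grade serous ovarian cancer with a mutated BRCA2 gene, and olaparib inhibits the DNA repair enzymes PARP1 and PARP2. Every condition used here is of that line, though whether the adapted populations kept its BRCA2 mutation was not examined here. The conditions are untreated control cells and persister cells kept in 320 µM olaparib for 9 days. The others are populations that the labels call adapted, and resistant, at 10 µM or at 320 µM. As a 1-line model without other cell types, it holds tumour cells in culture only. How long the adapted populations were kept in drug, whether they were in drug at harvest, and how many clones they descend from are not given in the labels. Cells of 5 conditions carried antibody hashtags and were mixed into 2 pools for droplet 3′ RNA sequencing. Each condition is therefore represented by 2 pools, and nothing in the labels says that these came from separate cultures. Any p-value here therefore reads pool-to-pool spread, part or all of which may be technical.

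A dividing cell passes from G1, in which it grows and commits to division, through S phase, in which DNA is copied, to G2 and mitosis, in which chromosomes are checked and separated. E2F factors switch on replication genes at the G1 to S boundary. The DREAM and MuvB complexes hold mitotic genes low in G1 through promoter elements called CHR, and B-MYB, FOXM1 and the CCAAT-binding factor NF-Y raise them later. Homologous recombination, which needs BRCA2, repairs breaks with the sister chromatid and so works in S and G2, and cells that lack it are sensitive to PARP inhibition because lesions then meet replication forks.

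Counts of unique molecular identifiers (UMIs, 1 per captured transcript) were added up by condition, pool and class into 20 sums. The G1-listed sums of 320 µM adapted cells held 7952402 and 8768809 UMIs and the cycling sums 10406004 and 11065594, so 3 UMIs, the floor used here, were worth 0.271 to 0.377 CPM, counts scaled to a common library size. Cycling cells were deeper: their median was 10816 and 13064 UMIs per cell in pools 1 and 2 against 6966 and 8108 in G1-listed cells, which is 1.55 and 1.61 times as many. CPM were computed on effective library sizes (trimmed mean of M-values, TMM), so a fall means a smaller share of a cell's transcripts and not always fewer molecules. MKI67, which encodes the proliferation antigen Ki-67, stood at 4.83 and 6.18 CPM in the G1-listed sums and 179 and 164 CPM in the cycling sums. TOP2A, the topoisomerase of dividing cells, stood at 16.8 and 16.8 CPM in the G1-listed sums and 389 and 401 CPM in the cycling sums. The cell type label, epithelial, is matched by KRT8 (3888 to 4236 UMIs per sum) and the serous lineage factor PAX8 (465 to 616 UMIs per sum), whereas the epithelial EPCAM (10 to 16 UMIs) and the serous marker WT1 (3 to 12 UMIs) were near 0 in all 4 sums. Markers of other cells were near 0 as well: CD3E, VWF and PDGFRB had 0 UMIs, PTPRC had 1 UMI in all, and DCN and LUM had at most 1 UMI in any sum. The summed fibroblast list stood, on plain library totals without TMM, at 71.1 and 66.5 CPM in G1-listed against 148 and 142 in cycling sums, nearly all of it THY1. On that scale the leukocyte list stood at 12.7 and 14.1 against 18.1 and 18.5 CPM, nearly all of it CD68, which is also a lysosomal gene. The mesothelial list stood at 4.13 to 4.70 CPM with no order by class, and the endothelial list at 1.64 and 2.40 CPM in G1-listed against 1.06 and 0.994 CPM in cycling sums. The part of these cells in any result was not tested. Only 1 cell barcode of this condition occurred in both pools.

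The cycling share of 320 µM adapted cells was 46.1% in pool 1 (95% exact binomial interval 43.9 to 48.3%) and 44.9% in pool 2 (42.6 to 47.2%), a mean of 45.5 ± 0.856% (SD, n = 2). Control cells stood at 57.1 ± 0.842%, 10 µM adapted cells at 35.0 ± 2.92% and 320 µM persister cells at 23.2 ± 2.68%, all n = 2. The 320 µM adapted pools lay below both control pools and above both pools of the other drug conditions. An exact two-sided permutation test gave p = 0.33 for each of these differences, the smallest value that 2 pools against 2 allow.

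More of the cycling 320 µM adapted cells were called G2/M, and fewer S phase, than in the other conditions. Phases were called from S and G2/M gene lists after each cell was thinned to 3000 UMIs, so that depth did not set the call. S phase was called in 27.9% and 29.1% of cycling 320 µM adapted cells, a mean of 28.5 ± 0.849% (SD, n = 2), against 41.6 ± 3.34% of cycling control cells, 44.6 ± 0.156% of cycling 10 µM adapted cells and 43.6 ± 1.68% of cycling 320 µM persister cells. G2/M was called in 67.0 ± 0.933% of them, against 49.98 ± 3.15%, 48.1 ± 0.955% and 51.7 ± 0.410% in the same order. Neither pool of 320 µM adapted cells overlapped any pool of those conditions in either share, with p = 0.33 again the smallest that the exact permutation test allows. Without thinning the S share was 32.8%, and among all S-called and G2/M-called cells, whether listed or not, it was 31.3%. Of G1-listed cells, 96.6% and 96.9% were called G1 in the 320 µM adapted pools, whereas 89.3 ± 0.672% were in control, so the G1-listed control class held more cells with S or G2/M calls.

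**Figure D1:**
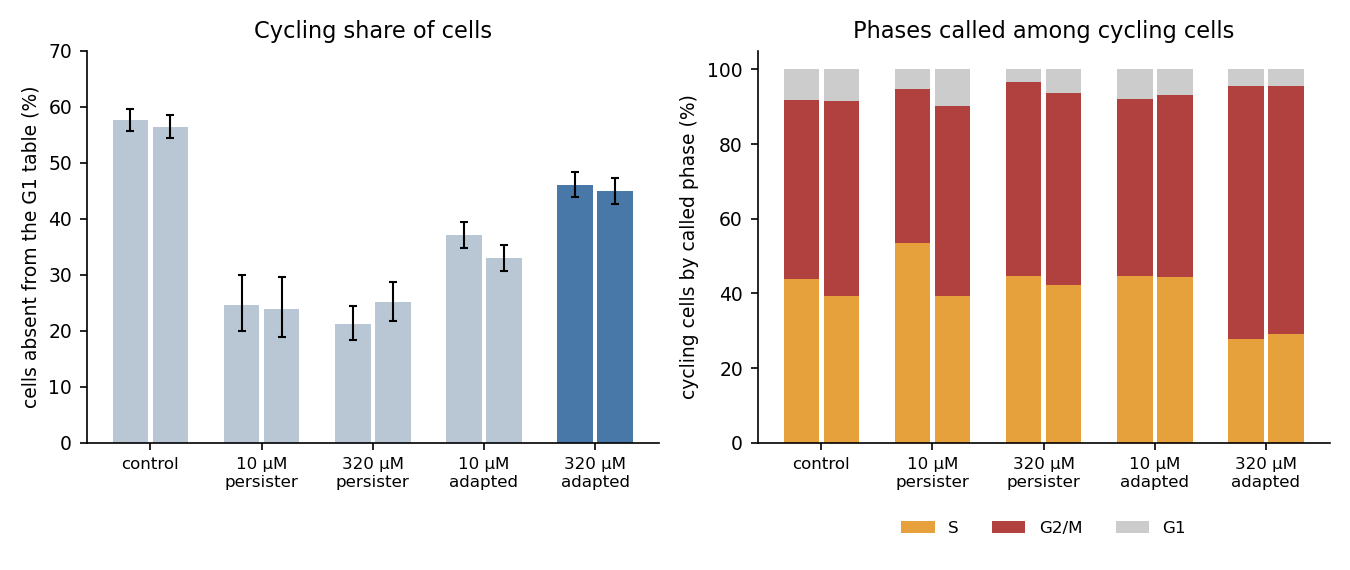
The left panel gives the percentage of cells absent from the G1 table in each condition (1 bar per pool, error bars are 95% exact binomial intervals), and the right panel splits the cycling cells of each pool by called phase after thinning to 3000 UMIs. The 320 µM adapted bars stand at 46.1% and 44.9% on the left, and their S share of 27.9% and 29.1% is the lowest on the right.

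Across the transcriptome, 12892 of 19893 genes were abundant enough to test with edgeR's quasi-likelihood test, and 3856 of them (29.9%) differed between cycling and G1-listed 320 µM adapted cells at an adjusted p under 0.05 (Benjamini-Hochberg). Of these, 1949 (15.1%) were higher and 1907 (14.8%) lower in cycling cells. The cycling and G1-listed sums of 8190 genes (63.5%) did not overlap at all, so separation of the sums alone says little about any 1 gene. The median log2 change of all tested genes was -0.02. Scaling by library totals moved that median to 0.19 and the split to 4073 higher and 841 lower, and relative log expression factors moved it to -0.08 and the split to 1565 and 2444. Changes are therefore given relative to the typical gene. The named genes below were separated between classes in all 4 sums unless stated. In a sum, fewer expressing cells and less RNA per cell cannot be told apart.

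Promoters of the 2 genes with the largest rise in the S phase list and the 2 in the G2/M list (of those with a RefSeq entry) are shown first, because the phases are known for different promoter elements. The 250 bases before the RefSeq start on GRCh38.p14 are printed 5′ to 3′ for the transcribed strand, with 3 motifs in capitals, sought as written and as reverse complements: the CHR element TTTGAA, the CCAAT box of the letters in its name, and an E2F core GCGGGAA. These motifs were chosen after the gene changes were known. DTL, an adaptor of the ubiquitin ligase that clears CDT1 in S phase, rose by 3.92 on the log2 scale and has a reverse E2F core 108 bases and a CCAAT box 31 bases upstream. EXO1, a nuclease of mismatch repair and end resection, rose by 3.67 and has none of the 3 in this window. CKAP2L, a spindle protein, rose by 5.53 and has CHR elements 17 and (in reverse) 86 bases upstream and CCAAT boxes at 70 and 185 bases. MKI67 rose by 4.95 and has CHR elements at 47 and 29 bases and reverse CCAAT boxes at 98 and 24 bases, and the last of its capitals, TTTGAATTGG, joins a CHR element to a reverse CCAAT box that share letters.
DTL (chr1:212035498-212035747, plus strand): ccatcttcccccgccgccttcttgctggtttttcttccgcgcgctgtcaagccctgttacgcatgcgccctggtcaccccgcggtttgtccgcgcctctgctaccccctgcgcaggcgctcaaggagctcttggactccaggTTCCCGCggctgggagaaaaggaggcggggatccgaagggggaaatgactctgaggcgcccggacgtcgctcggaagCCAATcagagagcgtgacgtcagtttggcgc
EXO1 (chr1:241847954-241848203, plus strand): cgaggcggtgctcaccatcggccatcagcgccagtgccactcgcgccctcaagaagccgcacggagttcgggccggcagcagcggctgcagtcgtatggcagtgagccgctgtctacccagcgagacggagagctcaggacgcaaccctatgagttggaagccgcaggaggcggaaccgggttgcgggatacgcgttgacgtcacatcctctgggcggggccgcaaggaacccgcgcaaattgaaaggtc
CKAP2L (chr2:112764610-112764859, minus strand): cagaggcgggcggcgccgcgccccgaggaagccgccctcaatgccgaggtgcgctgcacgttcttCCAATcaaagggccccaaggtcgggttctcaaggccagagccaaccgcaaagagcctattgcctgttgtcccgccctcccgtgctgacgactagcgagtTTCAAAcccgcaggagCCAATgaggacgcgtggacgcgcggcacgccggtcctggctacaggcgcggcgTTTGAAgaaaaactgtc
MKI67 (chr10:128126424-128126673, minus strand): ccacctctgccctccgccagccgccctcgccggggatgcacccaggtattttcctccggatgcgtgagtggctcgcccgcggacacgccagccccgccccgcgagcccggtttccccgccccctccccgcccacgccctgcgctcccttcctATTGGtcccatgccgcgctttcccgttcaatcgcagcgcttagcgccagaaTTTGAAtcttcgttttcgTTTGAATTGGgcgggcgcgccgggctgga

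Over the 300-base RefSeq window (these 250 bases and the next 50), 45 of 54 tested genes of the G2/M list and 33 of 43 of the S phase list had an entry, as did 10175 of the 12892 tested genes. TTTGAA stood in 68.9% of the G2/M promoters, in 3.03% of the S phase promoters and in 9.55% of all of them. GCGGGAA showed the reverse order, with 54.5% of S phase, 8.89% of G2/M and 10.5% of all promoters. CCAAT stood in 69.7% of S phase and 68.9% of G2/M promoters against 36.4% of all. These are matches of letters and not binding sites.

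Genes of S phase, G2/M, replication and mitosis were higher in cycling cells in nearly every case, which is given as a description because the deposited table may rest on such genes. All 54 G2/M genes and all 64 further mitotic genes passed upwards, with median log2 changes of 3.72 and 2.80 beside -0.02 for all tested genes. Of 43 S phase genes 40 passed upwards (median 2.14), as did 34 of 34 further replication genes (median 1.83). Among all tested genes 15.1% were higher and 14.8% lower. UBE2C, the ubiquitin-conjugating enzyme of the anaphase-promoting complex, stood at 40.8 and 44.7 CPM in the G1-listed sums and 1257 and 1224 CPM in the cycling sums (log2 4.86, SE 0.07). CCNA2, the cyclin of S phase and G2, stood at 1.61 and 2.59 CPM in the G1-listed sums and 84.3 and 87.6 CPM in the cycling sums (log2 5.33, SE 0.16). The classes were far apart in both pools. HMMR, a spindle protein, stood at 7.90 and 5.75 CPM in the G1-listed sums and 194 and 194 CPM in the cycling sums, and PLK1, the mitotic kinase, at 2.58 and 1.72 CPM in the G1-listed sums and 60.8 and 61.5 CPM in the cycling sums. CCNE2, a cyclin of S phase entry, was low in both classes, at 0.806 and 2.30 CPM in the G1-listed sums and 13.3 and 15.1 CPM in the cycling sums. CCNE1, the related E-type cyclin, stood at 2.74 and 5.75 CPM in the G1-listed sums and 10.8 and 8.69 CPM in the cycling sums, and CCNB1, the cyclin of mitotic entry, at 23.2 and 28.6 CPM in the G1-listed sums and 274 and 265 CPM in the cycling sums. The 48 matched replicative histone genes had 33 tested members, of which 12 rose and 2 fell, with a median of 0.86. Replicative histone messages lack the poly(A) tail that 3′ capture uses.

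Within the cycling cells, the called phases separated these genes as their names say, again as a description since the calls use them. HMMR stood at 26.4 and 31.3 CPM in S-called against 259.8 and 259 CPM in G2/M-called cells of the 2 pools, and CCNE2 at 32.8 and 35.2 CPM against 6.79 and 7.55 CPM. CCND1, cyclin D1 of the G1 restriction point, did not pass over all cycling cells, where its sums overlapped (35.9 and 50.2 CPM in the G1-listed sums and 43.2 and 40.01 CPM in the cycling sums, log2 -0.06, adjusted p = 0.717). Its S-called cells stood above the G1-listed cells (log2 0.41, adjusted p = 0.0173) and its G2/M-called cells below (log2 -0.30, adjusted p = 0.0195). CDKN1B, which encodes the CDK inhibitor p27, showed the opposite order, at log2 -0.71 (adjusted p = 0.00125) in S-called and 0.32 (adjusted p = 0.0302) in G2/M-called cells, and did not pass over both together, where its sums overlapped (27.7 and 32.5 CPM in the G1-listed sums and 32.9 and 32.4 CPM in the cycling sums, log2 0.11, adjusted p = 0.505).

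DNA repair genes were mostly higher in cycling cells. Of 42 tested genes of homologous recombination and the Fanconi anemia pathway 30 rose and 1 fell (median log2 1.36). Among all tested genes 15.1% rose and 14.8% fell. BRCA1, which steers breaks into recombination, stood at 9.35 and 9.48 CPM in the G1-listed sums and 75.5 and 78.5 CPM in the cycling sums (log2 3.03, SE 0.11, adjusted p = 8.23e-32). BRCA2, the mutated gene of this line, stood at 3.71 and 4.45 CPM in the G1-listed sums and 30.1 and 31.6 CPM in the cycling sums (log2 2.91, SE 0.17, adjusted p = 2.61e-22). FANCD2, a clamp at stalled forks, stood at 5.32 and 4.17 CPM in the G1-listed sums and 40.4 and 39.7 CPM in the cycling sums (log2 3.08, SE 0.15, adjusted p = 9.07e-26). UBE2T, the ubiquitin-conjugating enzyme for that clamp, rose by 2.46 on the log2 scale. Each of these was several times higher in both cycling sums than in either G1-listed sum. The level of a transcript does not show whether its product functions.

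The drug's own targets rose as well. PARP1 stood at 101 and 96.4 CPM in the G1-listed sums and 144 and 145 CPM in the cycling sums (log2 0.55, SE 0.06, adjusted p = 7.21e-11), and PARP2 at 12.1 and 12.5 CPM in the G1-listed sums and 20.6 and 18.8 CPM in the cycling sums (log2 0.68, SE 0.14, adjusted p = 5.31e-05). Of 20 genes of PARP targets and single-strand break repair 10 rose and 1 fell (median 0.30). For this list and those below, the shares among all tested genes were 15.1% higher and 14.8% lower. The gene that fell was APEX1, the abasic site nuclease, at 203 and 214 CPM in the G1-listed sums and 140.2 and 143 CPM in the cycling sums (log2 -0.56, adjusted p = 2.93e-11). Per cell, APEX1 came to 1.145 and 1.466 UMIs in G1-listed and 1.412 and 1.752 in cycling cells of pools 1 and 2. NEIL3, a DNA glycosylase, had the lowest p among the rises, at 1.29 and 1.44 CPM in the G1-listed sums and 28.1 and 28.6 CPM in the cycling sums (log2 4.36, adjusted p = 7.83e-26). End joining and resection control counted 12 rises and 2 falls of 21 (median 0.28), with MAD2L2 of the shieldin complex at log2 0.70 (adjusted p = 5.82e-11) and RIF1 at 0.57 (adjusted p = 3.77e-08). The replication stress checkpoint counted 17 rises and 2 falls of 25 (median 0.58). Its kinase CHEK1 stood at 12.9 and 13.1 CPM in the G1-listed sums and 65.2 and 65.3 CPM in the cycling sums (log2 2.33, SE 0.11, adjusted p = 9.91e-27). Nucleotide synthesis counted 15 rises and 1 fall of 26, led by TK1, thymidine kinase, at 17.6 and 19.3 CPM in the G1-listed sums and 132 and 121 CPM in the cycling sums (log2 2.78, adjusted p = 9.05e-34). ABCB1, the drug efflux pump, was too low to test.

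Outside the cell cycle lists the largest rises were still mostly genes of division. ASPM, a spindle pole protein, stood at 9.83 and 8.91 CPM in the G1-listed sums and 162 and 144 CPM in the cycling sums (log2 4.03, adjusted p = 1.25e-40). DIAPH3, a formin of the cytokinetic ring, rose by 2.62, FBXO5, the inhibitor of the anaphase-promoting complex, by 2.59, TRIP13, an ATPase of the spindle checkpoint, by 2.10, and KPNA2, a nuclear import receptor, by 2.31, all on the log2 scale. POC1A, a centriole protein, stood at 10.5 and 10.2 CPM in the G1-listed sums and 53.2 and 52.3 CPM in the cycling sums (log2 2.35, adjusted p = 6.41e-23), and MND1, a recombination factor best known from meiosis, at 11.4 and 12.9 CPM in the G1-listed sums and 65.6 and 64.1 CPM in the cycling sums (log2 2.41, adjusted p = 2.61e-26).

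Genes with other roles were among the rises too. MT2A, a metallothionein that binds zinc and other metals, stood at 1126 and 1150 CPM in the G1-listed sums and 3128 and 2999 CPM in the cycling sums (log2 1.43, SE 0.05, adjusted p = 7.99e-34). MT1X, of the same family, stood at 182 and 187 CPM in the G1-listed sums and 348 and 335 CPM in the cycling sums (log2 0.89, SE 0.08, adjusted p = 3.76e-08), while MT1F stood lower in cycling cells (47.1 and 48.4 against 36.4 and 33.5 CPM, log2 -0.45, adjusted p = 9.16e-05). In all, 2 of 5 tested metallothioneins rose and 1 fell. FOSL1, a subunit of the AP-1 factor, stood at 16.8 and 16.1 CPM in the G1-listed sums and 83.4 and 72.2 CPM in the cycling sums (log2 2.24, SE 0.12, adjusted p = 4.63e-21). AXL, a receptor tyrosine kinase linked to drug tolerance, stood at 28.03 and 27.3 CPM in the G1-listed sums and 58.0 and 60.2 CPM in the cycling sums (log2 1.095, SE 0.10, adjusted p = 2.81e-14). THY1, a surface glycoprotein, stood at 83.3 and 77.9 CPM in the G1-listed sums and 158 and 152 CPM in the cycling sums (log2 0.95, SE 0.07, adjusted p = 1.51e-16). All were separated between the classes in both pools.

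Genes of G1 and the restriction point counted 13 rises and 2 falls of 19 (median 0.84), RBL1, which encodes the pocket protein p107, standing at 8.70 and 9.34 CPM in the G1-listed sums and 32.9 and 29.9 CPM in the cycling sums (log2 1.79, adjusted p = 1.58e-16). Inhibitors of the cycle moved in both directions. Of 28 tested genes of CDK inhibitors and quiescence 2 rose and 14 fell (median -0.42). CDKN1A, which encodes p21 and is a p53 target, was among those that rose, at 36.3 and 36.1 CPM in the G1-listed sums and 82.6 and 84.3 CPM in the cycling sums (log2 1.21, SE 0.09, adjusted p = 1.96e-17). It was higher in both S-called (65.6 and 77.8 CPM) and G2/M-called cells (90.1 and 87.8 CPM) than in either G1-listed sum. CDKN2A, which encodes p16, was lower in cycling cells, at 26.6 and 31.04 CPM in the G1-listed sums and 19.6 and 18.4 CPM in the cycling sums (log2 -0.61, adjusted p = 1.76e-05), as was KLF6, a growth-restraining factor (log2 -0.44, adjusted p = 9.33e-08). Per cell, CDKN2A came to 0.150 and 0.212 UMIs in G1-listed and 0.197 and 0.224 in cycling cells of pools 1 and 2, so its share and not its number was lower. The p53 targets counted 6 rises and 4 falls of 29 (12 and 3 with library totals), with PLK2 at log2 -0.97 (adjusted p = 2.56e-22) and GDF15 at -0.88 (adjusted p = 5.17e-04). Among all tested genes 15.1% were higher and 14.8% lower, so these counts mark no trait of the list. MYC was lower in cycling cells, going from 265 and 255 CPM to 168 and 157 CPM (log2 -0.68, adjusted p = 2.28e-09).

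Among genes of 50 CPM or more in the higher class, the largest falls outside the cell cycle lists included genes of secretion, cytoskeleton and matrix. SLPI, a secreted inhibitor of leukocyte proteases, stood at 1238 and 1250 CPM in the G1-listed sums and 375 and 305 CPM in the cycling sums (log2 -1.87, SE 0.14, adjusted p = 9.59e-07; chr20:45252239-45254564, minus strand). ABLIM1, an actin-binding LIM protein, stood at 61.2 and 60.5 CPM in the G1-listed sums and 14.0 and 16 CPM in the cycling sums (log2 -2.02, SE 0.10, adjusted p = 2.74e-26; chr10:114431113-114685003, minus strand). SVIL, supervillin, which ties actin and myosin to the membrane, stood at 379.9 and 366 CPM in the G1-listed sums and 129 and 127 CPM in the cycling sums (log2 -1.54, SE 0.07, adjusted p = 9.94e-28; chr10:29457338-29736781, minus strand). In each, both G1-listed sums lay far above either cycling sum.

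LAMA4, a laminin chain, stood at 159.8 and 149 CPM in the G1-listed sums and 62.0 and 55.0 CPM in the cycling sums (log2 -1.40, adjusted p = 2.09e-22), and S100A4, a calcium-binding protein of motile cells, at 345 and 377 CPM in the G1-listed sums and 134 and 150.2 CPM in the cycling sums (log2 -1.35, adjusted p = 3.27e-25). RAPGEF3, the cAMP-activated exchange factor EPAC1, fell by 1.62 on the log2 scale, PDE1C, a calmodulin-dependent phosphodiesterase, by 1.35, NPR3, the natriuretic peptide clearance receptor, by 1.51, and SLC48A1, a heme transporter of endolysosomes, by 1.38. IGFBP5, a binding protein of insulin-like growth factors, was low but further apart, at 28.2 and 20.6 CPM in the G1-listed sums and 2.01 and 2.37 CPM in the cycling sums (log2 -3.45, SE 0.29, adjusted p = 8.19e-08). HIST3H2A, a histone gene outside the replicative list, stood at 55.6 and 57.5 CPM in the G1-listed sums and 18.3 and 22.7 CPM in the cycling sums (log2 -1.46, adjusted p = 2.59e-14).

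**Figure D2:**
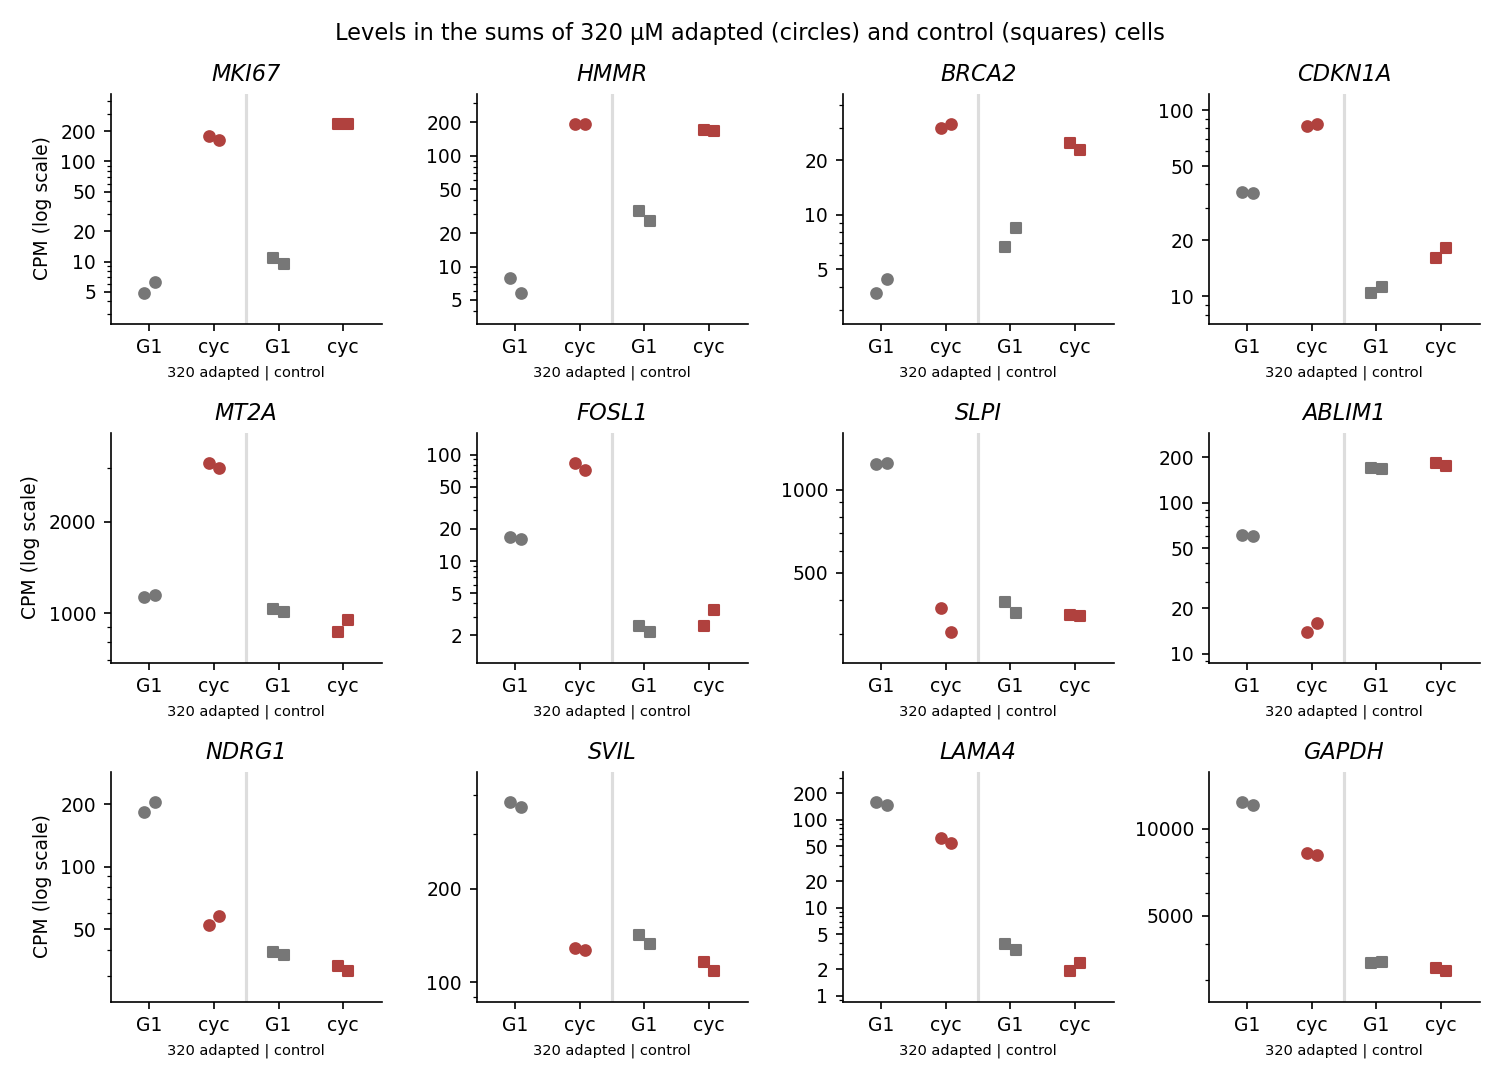
CPM on a log axis for 12 genes in the 2 G1-listed (grey) and 2 cycling (red) sums of 320 µM adapted cells (circles, left in each panel) and of control cells (squares, right), 1 point per pool. SLPI and NDRG1 separate by class in 320 µM adapted cells and stand close together in control, ABLIM1 is below control in both classes, and the MT2A cycling sums of 320 µM adapted cells (3128 and 2999 CPM) stand above the other 6.

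Genes of hypoxia and glycolysis were lower in cycling cells: 19 of 28 fell and 0 rose (median -0.33). Among all tested genes 14.8% fell and 15.1% rose. NDRG1, a target of hypoxia-inducible factors, stood at 183 and 205 CPM in the G1-listed sums and 52.6 and 58.3 CPM in the cycling sums (log2 -1.81, SE 0.08, adjusted p = 1.79e-28). NDUFA4L2, a mitochondrial protein that hypoxia raises, stood at 97.6 and 98.1 CPM in the G1-listed sums and 37.8 and 26.9 CPM in the cycling sums (log2 -1.60, SE 0.14, adjusted p = 1.98e-08). GAPDH, the glycolytic dehydrogenase, stood at 12360 and 12110 CPM in the G1-listed sums and 8208 and 8095 CPM in the cycling sums (log2 -0.59, SE 0.05, adjusted p = 6.61e-14), and PGK1, phosphoglycerate kinase, at 521 and 502 CPM in the G1-listed sums and 379.6 and 363 CPM in the cycling sums (log2 -0.46, adjusted p = 8.22e-10). The fall was thus seen in hypoxia markers and in abundant enzymes of glycolysis alike. VEGFA, the vascular growth factor, stood at 84.9 and 83.8 CPM against 52.0 and 55.5 CPM (log2 -0.65, adjusted p = 4.20e-09). Scaled by library totals, 12 of the 28 fell and 2 rose.

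Abundant housekeeping transcripts also took a smaller share. All 13 mitochondrially encoded genes fell (median -0.55), and 44 of 45 large ribosomal protein genes fell with none rising (median -0.41; 36 fell with library totals). In control 2 of the mitochondrially encoded genes (median -0.05) and 37 of the large ribosomal genes (median -0.19) fell. Among all tested genes of 320 µM adapted cells 14.8% fell and 15.1% rose. MT-CO1, a subunit of cytochrome oxidase, stood at 18930 and 18190 CPM in the G1-listed sums and 12340 and 12560 CPM in the cycling sums (log2 -0.58, SE 0.04, adjusted p = 8.18e-19), and MT-ATP6, of the ATP synthase, at 4184 and 4092 CPM in the G1-listed sums and 2288 and 2338 CPM in the cycling sums (log2 -0.84, SE 0.05, adjusted p = 1.59e-23). Mitochondrially encoded counts were 6.17% and 6.16% of the UMIs in G1-listed sums against 4.72% and 4.80% in cycling sums. Per cell, however, they came to 447 and 532 UMIs in G1-listed and 523 and 641 in cycling cells, so their number per cell was higher in cycling cells and their share lower. Ribosomal protein counts likewise came to 2864 and 3408 UMIs per G1-listed and 3836 and 4652 per cycling cell. Nuclear genes of oxidative phosphorylation counted 27 falls and 2 rises of 53 (median -0.16), which turned to 17 rises and 7 falls (median 0.06) with library totals. FTH1 and FTL, the chains of the iron store ferritin, stood at 30100 and 28940 CPM and 19890 and 19450 CPM in the G1-listed sums, and at 18100 and 17780 CPM and 12980 and 12770 CPM in the cycling sums (log2 -0.72, adjusted p = 3.39e-24 and -0.61, adjusted p = 4.52e-17).

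Interferon and inflammatory genes were mostly lower in cycling cells where they passed. Of 43 interferon response genes 16 fell and 2 rose (median -0.57; 9 and 3 with library totals). In control 19 of them fell and 1 rose (median -0.47). Among all tested genes of 320 µM adapted cells 14.8% fell and 15.1% rose. IFITM3, an antiviral membrane protein, stood at 313 and 319 CPM in the G1-listed sums and 165 and 166 CPM in the cycling sums (log2 -0.93, SE 0.06, adjusted p = 1.51e-21), and ISG15, a ubiquitin-like protein, at 176 and 169 CPM in the G1-listed sums and 107 and 105 CPM in the cycling sums (log2 -0.70, SE 0.06, adjusted p = 3.07e-14). Of 26 genes of NF-kB and secreted inflammatory factors 7 fell and none rose (median -0.32). CXCL1, a neutrophil chemokine, stood at 22.2 and 30.2 CPM in the G1-listed sums and 9.19 and 9.48 CPM in the cycling sums (log2 -1.50, SE 0.16, adjusted p = 4.44e-08). Class I presentation counted 6 falls and 0 rises of 19 (0 falls and 3 rises with library totals), small ones such as HLA-C (log2 -0.28, adjusted p = 0.00226) and HLA-B (-0.19, adjusted p = 0.00365), and HLA-B changed sign to 0.02 (adjusted p = 0.810) with library totals. Of 24 immediate early genes 16 fell and 4 rose (median -0.42). JUNB, an AP-1 subunit, stood at 304 and 289 CPM in the G1-listed sums and 215 and 209 CPM in the cycling sums (log2 -0.48, adjusted p = 1.24e-09), in the opposite direction to FOSL1.

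Matrix and lineage genes split. Mesenchymal and matrix genes counted 12 falls and 3 rises of 35 (median -0.26; 7 and 6 with library totals). FN1, fibronectin, stood at 296 and 272 CPM in the G1-listed sums and 159.5 and 171 CPM in the cycling sums (log2 -0.78, SE 0.08, adjusted p = 2.36e-09), while ZEB1, a repressor of the epithelial state, stood at 30.1 and 25.6 CPM in the G1-listed sums and 44.0 and 44.6 CPM in the cycling sums (log2 0.67, SE 0.10, adjusted p = 3.19e-07). TGF-beta and YAP targets counted 11 falls and 2 rises of 27 (median -0.28), with AMOTL2, a YAP-binding protein, at 179 and 177 CPM in the G1-listed sums and 87.8 and 91.2 CPM in the cycling sums (log2 -0.99, adjusted p = 4.03e-19) and AXL among the rises. The serous lineage counted 5 falls and 0 rises of 18 (median -0.35). PAX8 stood at 86.8 and 88.5 CPM in the G1-listed sums and 51.2 and 45.9 CPM in the cycling sums (log2 -0.85, SE 0.08, adjusted p = 4.26e-13), and WFDC2, which encodes the ovarian tumour marker HE4, at 443 and 449.6 CPM in the G1-listed sums and 294 and 272 CPM in the cycling sums (log2 -0.66, adjusted p = 7.34e-04). Epithelial genes counted 4 falls and 0 rises of 22 (median -0.52; 2 and 2 with library totals): KRT8 stood at 626 and 601 CPM in the G1-listed sums and 448 and 386 CPM in the cycling sums (log2 -0.56, adjusted p = 2.75e-04), and KRT18 did not pass (log2 -0.24, adjusted p = 0.144). Among all tested genes 14.8% fell and 15.1% rose.

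Metabolic and stress lists held changes in both directions. Autophagy and lysosome genes counted 18 falls and 1 rise of 36 (median -0.24), with SQSTM1, the autophagy receptor p62, at log2 -0.51 (adjusted p = 2.73e-11). With library totals that list counted 7 rises and 6 falls. NRF2 targets counted 9 falls and 1 rise of 22, the ferritin genes among them (8 and 8 with library totals), and AKR1C3, an aldo-keto reductase, stood at 25.9 and 36.6 CPM in the G1-listed sums and 6.76 and 8.10 CPM in the cycling sums (log2 -2.08, adjusted p = 1.09e-18). Cholesterol synthesis counted 7 falls and 2 rises of 22 (median -0.12; 1 fall and 4 rises, median 0.09, with library totals), and split within the pathway: HMGCS1, which makes HMG-CoA, stood at log2 -0.42 (adjusted p = 1.27e-04) and FDPS, which makes farnesyl diphosphate, at 0.35 (adjusted p = 2.10e-05). SCD, the stearoyl-CoA desaturase, stood at 240.4 and 248.7 CPM in the G1-listed sums and 113 and 109.7 CPM in the cycling sums (log2 -1.14, adjusted p = 7.72e-10). Heat shock counted 8 rises and 2 falls of 18, with the chaperone HSP90AA1 at log2 0.61 (adjusted p = 6.31e-17) and the small heat shock protein HSPB1 at -0.59 (adjusted p = 4.59e-10). MYC targets and ribosome biogenesis counted 8 rises and 6 falls of 33, and the integrated stress and unfolded protein response 5 rises and 8 falls of 32. With library totals these counted 17 rises and 1 fall, and 15 rises and 5 falls. With TMM the percentages among all tested genes were 15.1% higher and 14.8% lower.

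**Figure D3:**
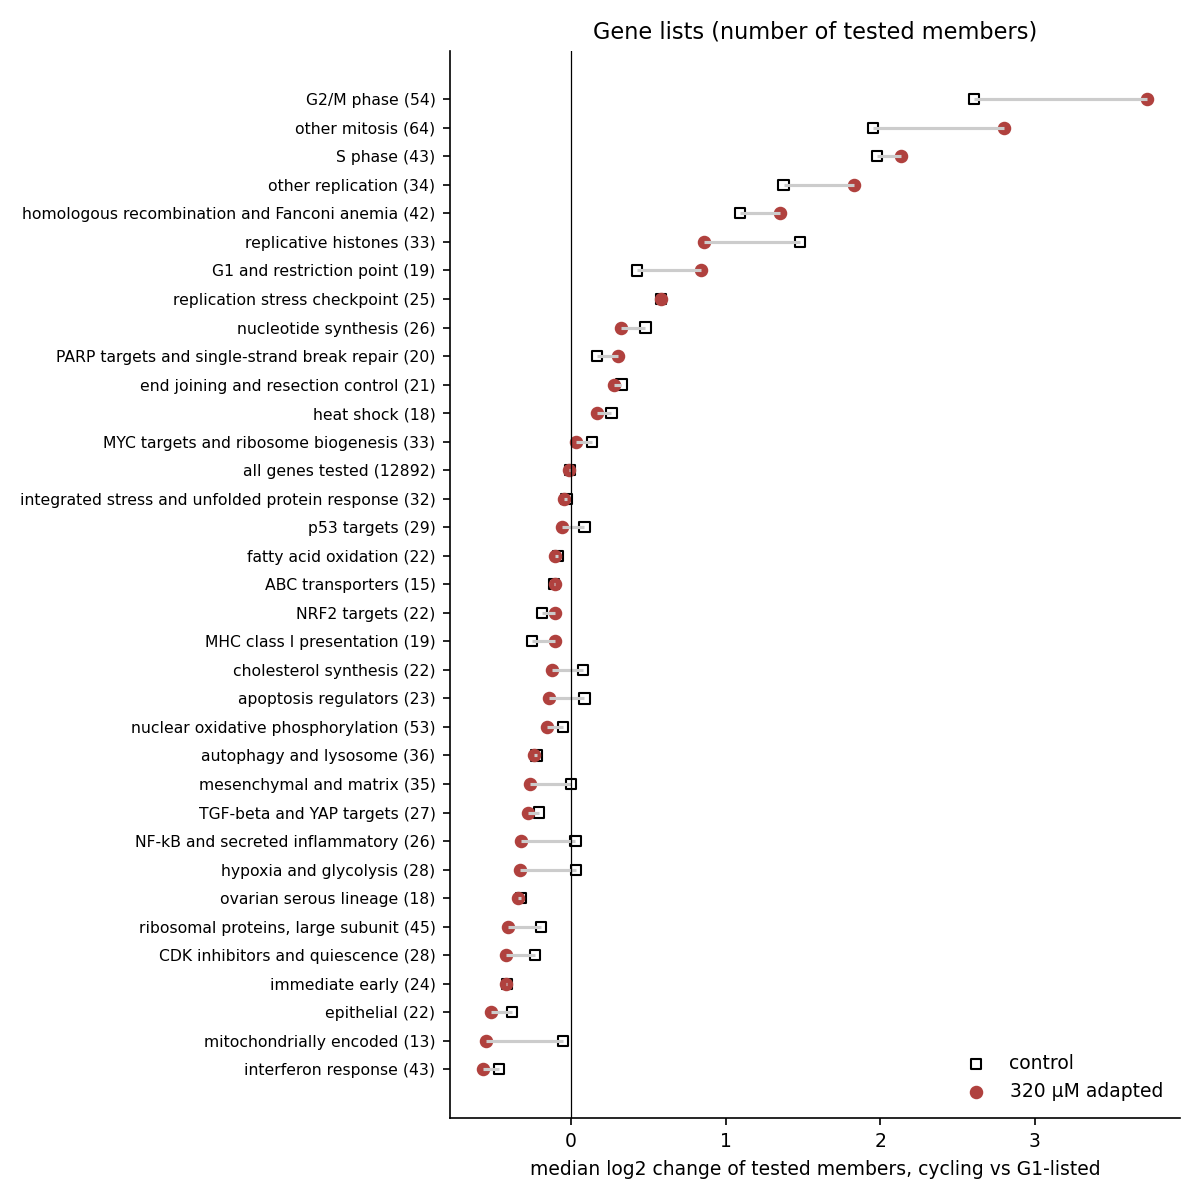
Median log2 change from G1-listed to cycling cells of each list with 10 or more tested members, in 320 µM adapted (red circles) and control cells (open squares), with the number of tested members in brackets. The G2/M median is 3.72 against 2.61, and that of mitochondrially encoded genes -0.55 against -0.05.

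To see which of these differences went beyond those of control cells, the cycling to G1-listed change was tested against the same change in control. It differed for 960 genes (7.45%), in the upward direction for 383 (2.97%) and in the downward direction for 577 (4.48%). Library totals turned that split to 1609 upward and 236 downward, with the median over all tested genes at 0.18. Of the 3856 genes called in 320 µM adapted cells 3382 had the same sign in control, 1913 were called the same way there and 55 the opposite way. In control 24.6% of tested genes were called, 14.1% higher and 10.4% lower in cycling cells. In the called direction, 446 of the 1907 fallen genes and 330 of the 1949 risen genes had a difference from control in their own direction.

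Among mitotic genes the rise was larger than in control for 31 of 54 G2/M genes (smaller for 2) and 40 of 64 further mitotic genes (smaller for none). Of all tested genes 2.97% differed upward and 4.48% downward. The deposited table may rest on such genes. Their differences and p-values, here and against the other conditions, are therefore given as a description only. Over the whole G2/M list, 40 genes were lower and 5 higher in G1-listed 320 µM adapted than in G1-listed control cells (median log2 -0.78; of all tested genes 65.6% differed, 32.8% in each direction). In cycling cells 23 were lower and 21 higher (median -0.05; of all tested genes 70.7% differed, 35.4% higher and 35.2% lower). HMMR stood at 28.8 ± 4.35 CPM in G1-listed and 169 ± 3.77 CPM in cycling control cells, against 6.82 ± 1.52 and 194 ± 0.225 CPM in 320 µM adapted cells (all SD, n = 2), a difference of changes of log2 2.28, SE 0.16, adjusted p = 5.56e-17. TTK, the spindle checkpoint kinase, differed by log2 2.11, SE 0.17, adjusted p = 2.07e-14. SGO1, which guards centromere cohesion, differed by log2 2.35, SE 0.21, adjusted p = 2.19e-13. NCAPH, a condensin subunit, differed by 2.21, PBK, a mitotic kinase, by 2.31, ANLN, the anillin of the cleavage furrow, by 1.95, and DTL by 2.09, all on the log2 scale. The share of G1-listed cells called G1, 89.3% in control and 96.6% and 96.9% in the 320 µM adapted pools, moves with this result. With only the cells where table and phase call agree, the differences were 2.36 for HMMR, 2.01 for TTK and 2.51 for SGO1. Those calls are made from the S and G2/M lists, so this split is no separate check. The share of cycling cells called G2/M, 67.0% in 320 µM adapted and 49.98% in control cells, also differed. The part of either share in these differences was not tested. MKI67 did not pass (log2 0.41, SE 0.19, adjusted p = 0.245).

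Some repair genes differed from control too. The rise was larger than in control for 14 of 42 genes of homologous recombination and the Fanconi pathway and smaller for 2. Of all tested genes 2.97% differed upward and 4.48% downward. BRCA2 stood at 7.58 ± 1.26 CPM in G1-listed and 23.8 ± 1.55 CPM in cycling control cells (SD, n = 2), a difference of changes of log2 1.27, SE 0.25, adjusted p = 2.07e-04. FANCD2 differed by 1.60 (adjusted p = 5.73e-07) and BRCA1 by 1.04 (adjusted p = 6.16e-06). The changes of PARP1 (0.18, adjusted p = 0.222) and PARP2 (-0.25, adjusted p = 0.489) did not differ past the threshold, and nor did those of CHEK1 (-0.24, adjusted p = 0.482). CDKN1A stood at 10.8 ± 0.558 CPM in G1-listed and 17.2 ± 1.59 CPM in cycling control cells (SD, n = 2), and its change was larger in 320 µM adapted cells by log2 0.54, SE 0.16, adjusted p = 0.0262.

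The rises of 2 metallothioneins, FOSL1 and AXL exceeded their changes in control. MT2A stood at 1020 ± 10.9 CPM in G1-listed and 907 ± 59.0 CPM in cycling control cells (SD, n = 2), where its change was log2 -0.17 (adjusted p = 0.00537), so the changes differed by log2 1.60, SE 0.07, adjusted p = 4.67e-27. MT1X, which fell in control (log2 -0.40, adjusted p = 0.00107), differed by log2 1.29, SE 0.12, adjusted p = 2.35e-07. FOSL1, at 2.30 ± 0.211 CPM in G1-listed and 2.96 ± 0.699 CPM in cycling control cells, differed by log2 1.87, SE 0.36, adjusted p = 1.99e-04, and AXL, at 3.04 ± 0.426 CPM in G1-listed and 2.05 ± 0.575 CPM in cycling control cells, by log2 1.65, SE 0.29, adjusted p = 2.91e-05. FOSL1 and AXL were low in both control classes. PIK3R1, the regulatory subunit of PI3-kinase, rose from 28.5 and 27.9 to 53.8 and 52.4 CPM, and its change exceeded that of control by 0.86 (adjusted p = 2.13e-06).

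Several of the leading falls were larger than the change of the same gene in control, or opposite to it. ABLIM1 stood at 168 ± 0.779 CPM in G1-listed and 179.5 ± 5.53 CPM in cycling control cells (SD, n = 2), a change of log2 0.09 (adjusted p = 0.297), and the changes differed by log2 -2.11, SE 0.12, adjusted p = 1.07e-21. Its level was below control in both classes of 320 µM adapted cells and lowest in the cycling class. SLPI stood at 377 ± 24.2 CPM in G1-listed and 350.1 ± 1.01 CPM in cycling control cells (log2 -0.10, adjusted p = 0.660), near its cycling level in 320 µM adapted cells, and differed by log2 -1.77, SE 0.19, adjusted p = 1.65e-04. NDRG1 stood at 38.3 ± 0.741 CPM in G1-listed and 32.4 ± 1.26 CPM in cycling control cells (log2 -0.24, adjusted p = 0.0465), and differed by log2 -1.56, SE 0.12, adjusted p = 1.81e-15. SCD changed in the opposite direction in control, at 18.3 ± 0.106 CPM in G1-listed and 28.4 ± 1.98 CPM in cycling control cells (log2 0.63, adjusted p = 0.00149), and differed by log2 -1.77, SE 0.17, adjusted p = 9.72e-08. LOXL1, a collagen cross-linking oxidase, did so too, with a difference of -1.55 (adjusted p = 4.67e-12). IGFBP5 differed by -1.55, which missed the threshold without the cycling sum of pool 1 (adjusted p = 0.111) or of pool 2 (adjusted p = 0.0804). PDE1C differed by -1.84, NPR3 by -1.57, SVIL by -1.26 and SLC48A1 by -1.25. LAMA4 and NDUFA4L2, which control cells hardly expressed (3.599 and 1.29 CPM in the G1-listed class), did not pass, at -0.67 (adjusted p = 0.139) and -0.81 (adjusted p = 0.595).

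By list, the downward differences from control took in 16 of 28 hypoxia and glycolysis genes (with 1 upward, median -0.45), 12 of 13 mitochondrially encoded genes (0 upward, median -0.52) and 25 of 45 large ribosomal genes (0 upward, median -0.22). The median over all tested genes was -0.01, with 4.48% of them downward and 2.97% upward. With library totals the hypoxia count was 11 downward and 1 upward, the mitochondrial count 11 and 0, and the ribosomal count 0 and 0. Over the whole list of 28 hypoxia and glycolysis genes, 23 were higher and 1 lower in G1-listed 320 µM adapted than in G1-listed control cells (median 1.18), and in cycling cells 19 were higher and 3 lower (median 0.66). GAPDH, at 3451 ± 35.9 CPM in G1-listed and 3262 ± 57.8 CPM in cycling control cells (SD, n = 2), differed by log2 -0.51, SE 0.07, adjusted p = 5.73e-07, and MT-ATP6 by log2 -0.80, SE 0.06, adjusted p = 9.27e-15. The interferon list, by contrast, held 1 downward and 0 upward differences of 43, and the immediate early list 1 downward and 4 upward of 24.

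**Figure D4:**
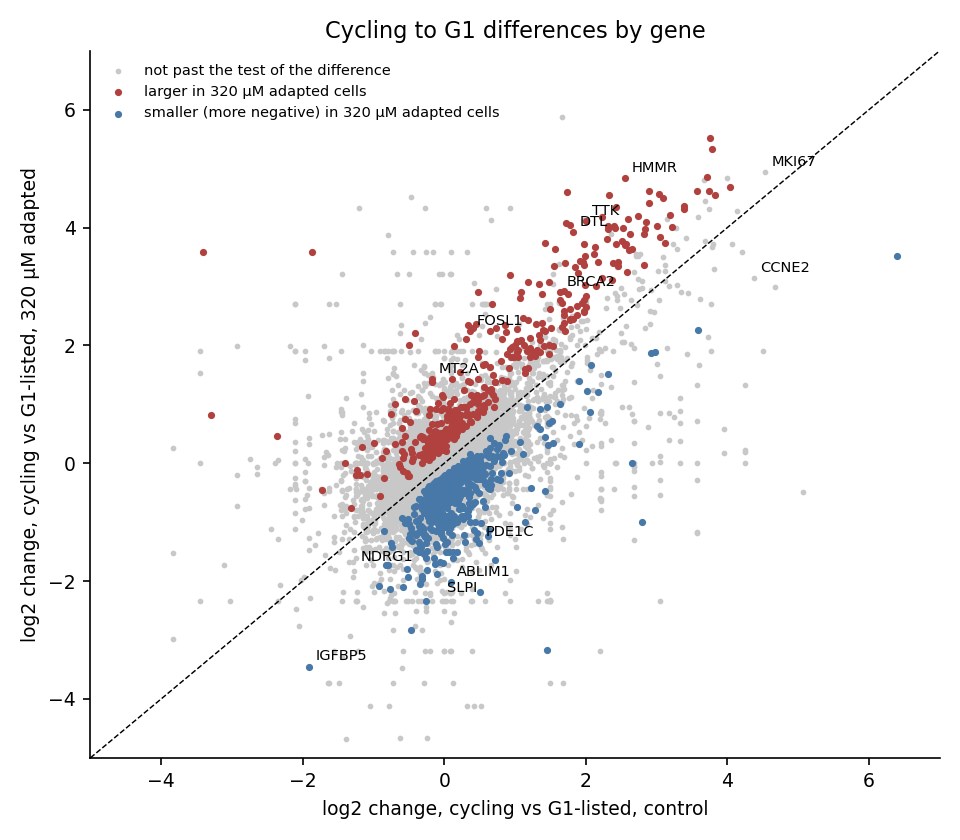
Each point is 1 of the tested genes, placed by its log2 change from G1-listed to cycling cells in control (x) and in 320 µM adapted cells (y), with 1 gene outside the axes. The dashed line marks equal changes, and colours mark the 383 genes above and 577 below it whose difference passed the test. HMMR, TTK and MT2A lie above it, and SLPI, ABLIM1 and NDRG1 below.

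SLPI was followed in single cells, a choice made after its values were seen, because a sum cannot tell fewer expressing cells from less RNA per cell. With each cell thinned to 3000 UMIs, 37.3% and 37.2% of G1-listed 320 µM adapted cells had 0 SLPI UMIs, against 53.2% and 56.6% of cycling cells. At the other end, 10.0% (95% exact binomial interval 8.31 to 11.97%) and 11.7% (9.75 to 13.8%) of G1-listed cells had 8 or more, against 1.61% (0.904 to 2.64%) and 1.1% (0.504 to 2.08%) of cycling cells. In control those shares were 1.17% and 1.29% of G1-listed and 0.642% and 0.996% of cycling cells. The high SLPI sums of G1-listed 320 µM adapted cells thus held a tail of very high cells that the other 3 classes held at 1.61% or less. Intervals cover counting error only.

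**Figure D5:**
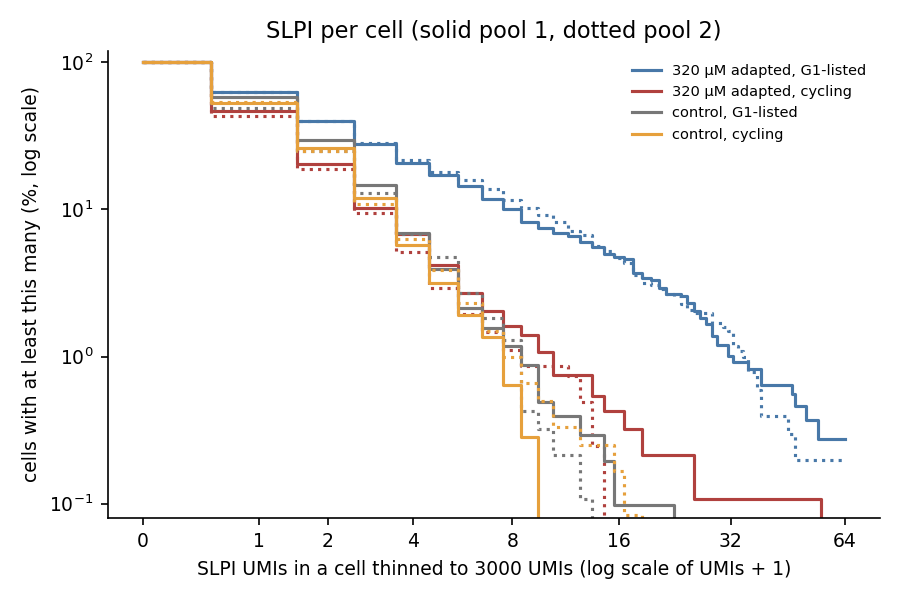
Percentage of cells (log axis) with at least a given number of SLPI UMIs (log axis of UMIs + 1) after thinning to 3000 UMIs, for G1-listed and cycling cells of the 320 µM adapted and control conditions, solid for pool 1 and dotted for pool 2. At 8 UMIs the G1-listed 320 µM adapted curves stand at 10.0% and 11.7%, and the other curves at 1.61% or below.

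Against cells adapted to 10 µM, the cycling to G1-listed change differed for 507 genes (3.93%), upward for 194 (1.5%) and downward for 313 (2.43%). The differences of SLPI (log2 -1.66, SE 0.19, adjusted p = 4.70e-04), CPA4, a carboxypeptidase (log2 -1.83, SE 0.16, adjusted p = 8.76e-13), BOC, a hedgehog co-receptor (-1.46), RAPGEF3 (-1.45) and IGFBP5 (-1.60) were downward. BOC and IGFBP5 fell in both populations, whereas the changes of SLPI (-0.21, adjusted p = 0.279), CPA4 (0.12, adjusted p = 0.366) and RAPGEF3 (-0.16, adjusted p = 0.224) did not pass in 10 µM adapted cells. SGO1 (log2 1.83, SE 0.24, adjusted p = 1.01e-07), CKAP2L (1.76), TTK (1.41) and HMMR (1.20) rose in both populations and more in the 320 µM one. PIK3R1, which fell in 10 µM adapted cells (-0.29, adjusted p = 0.0132), differed by 1.20. Hypoxia and glycolysis counted 10 downward and 0 upward differences of 28, and mitochondrially encoded genes 11 and 0 of 13. The G2/M list counted 20 upward and 2 downward of 54, and further mitotic genes 5 and 2 of 64. Homologous recombination and the Fanconi pathway counted 3 upward and 1 downward of 42. The differences of BRCA2 (0.60, adjusted p = 0.24) and CDKN1A (0.29, adjusted p = 0.305) did not pass. ABLIM1 differed by -1.40 (adjusted p = 3.41e-13) and MT2A by 0.70 (adjusted p = 1.12e-11). ABLIM1 fell in 10 µM adapted cells too, though less (log2 -0.62, adjusted p = 5.01e-11). Of 5 tested metallothioneins 1 rose and 0 fell in that population. With the pool as a block the count was 946. The HMMR difference was -0.01 with S-called cells alone as the cycling class (adjusted p = 1.00), and it was not past the threshold in thinned cells (0.92, adjusted p = 0.0898), nor was that of TTK (0.98, adjusted p = 0.0812). CKAP2L missed it by phase calls in place of the table (0.67, adjusted p = 0.323) and with S-called cells alone (1.44, adjusted p = 0.0868), as did BOC with S-called cells alone (-0.84, adjusted p = 0.0789). IGFBP5 missed it without the cycling sum of pool 1 (adjusted p = 0.140) or of pool 2 (adjusted p = 0.103).

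Against 320 µM persister cells the change differed for 1852 genes (14.4%), upward for 915 (7.1%) and downward for 937 (7.27%), and for 507 genes in thinned cells. The persister cycling class was small, at 158 and 152 cells. The downward differences were led by PCLAF, a clamp-binding replication protein (log2 -2.91, SE 0.15, adjusted p = 8.17e-23), TYMS, thymidylate synthase (log2 -2.16, SE 0.53, adjusted p = 0.0200), MYBL2, which encodes B-MYB (-2.09), and GGH, a folate hydrolase (-2.28). Each of these was still higher in S-called and in G2/M-called than in G1-listed 320 µM adapted cells. In the S phase list 22 of 43 differences were downward and 1 upward (median -0.84), whereas the G2/M list held 5 downward and 8 upward of 54 (median 0.02). S phase was called in 28.5% of cycling 320 µM adapted and 43.6% of cycling persister cells. The part of this in the list counts was not tested. FOSL1 (2.02), TRIB3, a stress pseudokinase (1.86), CLGN, a testis-type chaperone (1.88), HIST1H2AC (2.08) and MAL, a raft protein (1.96), differed upward. HIST1H2AC did not rise in 320 µM adapted cells, at log2 -1.10 in S-called and -1.20 in G2/M-called against G1-listed cells. Nor did TRIB3, at -0.17 (adjusted p = 0.430) and -0.60. CLGN was low there, at 5.16 and 4.31 CPM in the G1-listed and 8.35 and 8.40 CPM in the cycling sums. In persister cells CLGN fell (log2 -1.05, adjusted p = 2.35e-13). The MAL sums of 320 µM adapted cells overlapped, at 0.645 and 1.44 CPM in the G1-listed sums and 1.06 and 0.889 CPM in the cycling sums. The FOSL1 difference from persister cells did not pass in thinned cells (1.26, adjusted p = 0.445) or with S-called cells alone (1.17, adjusted p = 0.120). Those of MAL (1.87, adjusted p = 0.410), TYMS (-2.28, adjusted p = 0.181) and MYBL2 (-1.26, adjusted p = 0.0567) did not pass in thinned cells either. MAL also missed the threshold without the cycling sum of pool 1 (adjusted p = 0.0578) or the G1-listed sum of pool 1 (adjusted p = 0.0592), and TYMS without the G1-listed sum of pool 2 (adjusted p = 0.0864). ABLIM1 differed by -2.11, so its difference passed against control, 10 µM adapted and persister cells alike, as did those of NDRG1 (-1.38) and MT2A (0.80). These comparisons all use the same change in 320 µM adapted cells, so they are not separate checks of it. SLPI did not pass against persister cells (-0.65, adjusted p = 0.0674). All 13 mitochondrially encoded genes fell in cycling persister cells too (median -0.46), with 1 upward and 1 downward difference (median -0.01). The hypoxia and glycolysis list held 8 downward and 1 upward differences. Homologous recombination and the Fanconi pathway held 0 upward and 5 downward differences of 42 (median -0.34), with BRCA2 at -0.31 (adjusted p = 0.618) and BRCA1 at -0.11 (adjusted p = 0.809). CDKN1A rose more in persister cells (log2 2.17) than in 320 µM adapted cells, a difference of log2 -0.96, SE 0.14, adjusted p = 1.13e-06.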

How the data were processed

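Droplet 3′ libraries of 2 pools, each a mix of 5 conditions of hashtagged Kuramochi cells, were read as the deposited matrix of UMI counts per gene and cell, unscaled and with whole numbers only. The authors' steps are known in part: per the submitters' processing notes Cell Ranger 3.1, Seurat and the builds hg38 and GRCh38 were used, in roles not stated. Condition and pool were taken from cell names, and class from presence on the deposited table of G1 cells. In the matrix the lowest number of genes per cell was 502 and the highest mitochondrial share 15.0%. No doublet caller was run here, and whether doublets were removed before deposit is not given in the sources used here.

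Counts were summed over condition, pool and class into 20 sums and fitted with edgeR 4.0.16 (robust quasi-likelihood, limma 3.58.1, R 4.3.3), with 1 mean per condition and class, TMM factors of 0.781 to 1.19, genes kept by filterByExpr and Benjamini-Hochberg adjustment over all 12892 of them. The fit had 10 residual degrees of freedom. Differences between conditions were contrasts of contrasts in that fit. The labels give each pool 1 number in all conditions. Deviations of sums that share a pool were correlated in every pair of classes (0.146 to 0.509, and 0.358 between cycling and G1-listed 320 µM adapted cells, over 2744 genes), so the numbers pair the sums, and a fit with pool as a block was an alternative. Calls and p-values are from the fit without that block unless stated. Pools of 1 class differed by 1.94 and 2.20 times the variance of sampling, so none was counted as a repeat. Tested on simulated data in which 200 of 12892 genes changed, the fit recovered 93% of genes changed by log2 0.5 and 100% of those changed by log2 1, with 7 unchanged genes called. With so few genes changed, this cannot test the choice of scaling.

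Phases were called with scanpy 1.11.5 (Python 3.11.15) on cells thinned to 3000 UMIs, and intervals are exact binomial at 95% (scipy 1.17.1). PCR copies were collapsed only as far as UMIs allow, so floors and intervals cover counting error alone. Members and gene lists were chosen with earlier results of these data known. Named genes are the 12 largest rises and 12 largest falls outside the cell cycle lists (50 CPM or more in the higher class, sums not overlapping), the 6 largest rises within those lists, up to 4 genes of lowest p per list (20 CPM or more), and the 8 largest differences from control (5 for the other conditions) in each direction, beside some genes of the cycle and of PARP inhibition named whatever their values. Not all of them are named, and 1 gene is not reported here. Gene positions are those of GENCODE 29 on GRCh38, matched by symbol. Alternatives were other scalings, no filter, DESeq2 1.42.0, the block, the compared sums alone, thinned cells, phase calls in place of the table or required beside it, S-called or G2/M-called cells alone, no cells of highest UMI count, and each sum left out.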

Additional observations from a re-analysis of the deposited data

Results flagged for a closer look

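Each value below was picked out because the change from G1-listed to cycling cells differed between 320 µM adapted cells and another condition by the test of that difference in edgeR. The number of such genes was 960 against control, 507 against 10 µM adapted and 1852 against 320 µM persister cells. Values are differences of log2 changes, and no explanation was tested.

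Against control, genes of mitosis and replication differed upward: SGO1 by 2.35, PBK by 2.31, HMMR by 2.28, NCAPH by 2.21, TTK by 2.11, DTL by 2.09 and ANLN by 1.95. FOSL1, outside those groups, differed by 1.87. The deposited table may rest on genes of mitosis and replication, so their values are a description only. The differences of ABLIM1 (-2.11), PDE1C (-1.84), SCD (-1.77), SLPI (-1.77), NPR3 (-1.57), NDRG1 (-1.56), LOXL1 (-1.55) and IGFBP5 (-1.55) were downward.

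Against 10 µM adapted cells SGO1 (1.83), CKAP2L (1.76), TTK (1.41), PIK3R1 (1.20) and HMMR (1.20) differed upward. CPA4 (-1.83), SLPI (-1.66), IGFBP5 (-1.60), BOC (-1.46) and RAPGEF3 (-1.45) differed downward.

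Against 320 µM persister cells HIST1H2AC (2.08), FOSL1 (2.02), MAL (1.96), CLGN (1.88) and TRIB3 (1.86) differed upward. PCLAF (-2.91), GGH (-2.28), TYMS (-2.16), ABLIM1 (-2.11) and MYBL2 (-2.09) differed downward. ABLIM1 and FOSL1 were thus picked out against both control and persister cells, and SGO1, HMMR, TTK, SLPI and IGFBP5 against both control and 10 µM adapted cells. Such repeats share the change in 320 µM adapted cells and are not separate checks of it.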

How the results depend on the processing

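Of 167 genes followed over the alternatives (2664 values), 2571 values kept their direction and side of the threshold, 59 lost the call, 30 gained it and 4 turned. HLA-B turned to 0.0198 with library totals, CCND1 to 0.411 with S-called cells alone and 0.231 without the cells of most UMIs, and CDKN1B to -0.709 with S-called cells alone. Of 576 values for 36 differences between conditions 554 were kept, 21 lost the call and 1 turned (HMMR against 10 µM adapted cells, -0.00507 with S-called cells alone). The lost calls were those of IGFBP5 (control and 10 µM), TTK, HMMR, CKAP2L and BOC (10 µM), and FOSL1, MAL, TYMS and MYBL2 (persister), among them IGFBP5 with G2/M-called cells alone (-1.14 and -1.22) and against 10 µM adapted cells with the compared sums alone (-1.66). Library totals gave 4073 higher and 841 lower genes, and 1845 and 997 differences from control and from 10 µM adapted cells. DESeq2 gave 1324 higher and 2051 lower. Thinned cells, which hold fewer UMIs, gave 1062 higher, 1198 lower, and 477, 248 and 507 differences from control, 10 µM adapted and persister cells. S-called cells alone gave 477 and 198 differences from the first and the second of these. The fit of the compared sums alone gave 960 differences from 10 µM adapted cells. With the pool as a block, which honours the pairing, that number was 946, and higher and lower genes were 2222 and 2190. Differences from control and from persister cells then numbered 1432 and 2225. The block ended no call among the named genes. Leaving out 1 sum of 320 µM adapted cells gave 1480 to 1643 higher and 1356 to 1473 lower genes, 630 to 707 differences from control (630 without the G1-listed sum of pool 1), 312 to 361 from 10 µM adapted cells (312 and 321 without the G1-listed and cycling sums of pool 1, and 334 without the cycling sum of pool 2) and 1385 to 1586 from persister cells, the lone sum being assumed to vary like the other groups. The S share of cycling cells was 32.84% without thinning and 31.26% by phase calls in place of the table. Where a result moved, the cause was not tested. ABCB1 was too low to test, so no fold is given for it.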

Other observations

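Among lists not described so far, apoptosis regulators counted 2 rises and 4 falls of 23 tested genes in cycling 320 µM adapted cells (median log2 -0.14; 7 rises and 2 falls, median 0.07, with library totals). BCL2L1, which encodes the survival protein BCL-XL, fell by 0.56 on the log2 scale (edgeR adjusted p = 1.50e-05), and BID, a pro-apoptotic protein, rose by 0.43 (adjusted p = 5.52e-06). Fatty acid oxidation counted 1 rise and 5 falls of 22 (median -0.10; 4 rises and 1 fall, median 0.11, with library totals), and ABC transporters, the family of drug efflux pumps, 0 rises and 3 falls of 15 (median -0.10; 2 rises and 3 falls, median 0.11, with library totals). The percentages called among all tested genes were 15.1% higher and 14.8% lower. Cells kept in 10 µM olaparib for 9 days, which entered no comparison, had 24.3 ± 0.509% of cells absent from the G1 table (SD, n = 2).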
